A study of Mus musculus with 6 samples.

Results

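Secreted WNT antagonists are extracellular proteins that hold WNT ligands or their co-receptors away from signalling. The 10 genes described here were Sfrp1, Sfrp2, Frzb, Sfrp4, Sfrp5, Dkk1, Dkk2, Dkk3, Wif1 and Sost, chosen by symbol among the 32286 features of the count matrices. Each symbol matched 1 feature, and all 10 had at least 1 UMI (unique molecular identifier, the tag that marks 1 captured RNA molecule) in each of the 6 libraries. The libraries came from digits in a dish (DID) cultures, in which dissociated mouse limb bud cells form digit-like tissues on a culture dish. All cultures were wildtype CD-1 cells of the forelimb's distal mesenchyme, taken at E11.5 and pooled over embryos, grown in the same serum-containing medium with no sort and no treatment. They were sampled at Day 2, Day 7 and Day 10 by 10x Genomics 3′ single-cell RNA-seq, with replicates A and B at each day from independent cultures (n = 2 libraries per day). The pooled tissue held cartilage, tendon, muscle and blood precursors together, and no library isolated a cell type.

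WNT proteins bind Frizzled receptors and the co-receptors LRP5 and LRP6, and in the canonical branch this lets β-catenin reach the nucleus and act with TCF/LEF factors. The secreted Frizzled-related proteins (Sfrp1, Sfrp2, Frzb, Sfrp4, Sfrp5) carry a Frizzled-type cysteine-rich domain and bind WNTs directly, as does WIF1 through a domain of its own. Dickkopf proteins (Dkk1, Dkk2) and sclerostin (Sost) bind LRP5 and LRP6, while Dkk3 is a divergent Dickkopf protein whose role in the pathway is less settled. In the limb, WNT inhibition accompanies cartilage differentiation, Dkk1 is a known product of the interdigit and distal mesenchyme, and joint interzone cells keep WNT signalling active.

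After the cell filters of the study, 72099 of the deposited barcodes remained, between 9448 and 16486 per library. The kept cells carried 178022112 to 260245417 UMIs per library, and the median cell held 3871 UMIs in Day 2 replicate B against 18587 in Day 2 replicate A and 8062 to 24197 in the other 4 libraries. Day 2 replicate B stood apart, with 41.4% of its kept cells under 3000 UMIs, so comparisons with Day 2 were repeated without it. Any 2 libraries shared between 24 and 67 kept cell barcodes. Values per library below are CPM, the UMIs of a gene scaled to the summed UMIs of the kept cells and to TMM factors. In such whole-culture sums, fewer cells of a type and less RNA per cell cannot be told apart.

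The promoters of 4 members are shown because these genes set the pattern described below: Dkk1 and Sfrp2 were high at Day 2, and Frzb and Sfrp5 at Days 7 and 10. RefSeq windows on GRCm38.p6, from 250 bases before to 50 bases after the RefSeq gene start, were found for 7 of the 10 members (not for Sfrp1, Sfrp4 and Dkk3). The gene ranges given further below come from another annotation, GENCODE, whose starts of Dkk1 and Frzb lie further upstream, inside or near the end of these windows. They are written 5′ to 3′ along the gene, and capitals mark TCF/LEF-type letters (CTTTG followed by 2 bases that are each A or T, on either strand) and the TATA box letters TATAAA.
Dkk1 (chr19:30549447-30549746, - strand): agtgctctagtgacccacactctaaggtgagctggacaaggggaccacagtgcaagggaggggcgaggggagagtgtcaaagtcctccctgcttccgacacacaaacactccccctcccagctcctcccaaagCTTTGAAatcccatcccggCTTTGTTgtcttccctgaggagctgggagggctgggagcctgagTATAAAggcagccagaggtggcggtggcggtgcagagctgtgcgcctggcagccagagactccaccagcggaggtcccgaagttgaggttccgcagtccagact
Sfrp2 (chr3:83766071-83766370, + strand): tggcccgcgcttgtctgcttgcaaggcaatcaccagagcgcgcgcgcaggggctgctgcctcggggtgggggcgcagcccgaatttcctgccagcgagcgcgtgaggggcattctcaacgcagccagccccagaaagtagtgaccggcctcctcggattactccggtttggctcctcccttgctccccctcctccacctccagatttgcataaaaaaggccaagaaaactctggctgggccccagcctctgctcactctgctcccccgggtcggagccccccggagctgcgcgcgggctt
Frzb (chr2:80447347-80447646, - strand): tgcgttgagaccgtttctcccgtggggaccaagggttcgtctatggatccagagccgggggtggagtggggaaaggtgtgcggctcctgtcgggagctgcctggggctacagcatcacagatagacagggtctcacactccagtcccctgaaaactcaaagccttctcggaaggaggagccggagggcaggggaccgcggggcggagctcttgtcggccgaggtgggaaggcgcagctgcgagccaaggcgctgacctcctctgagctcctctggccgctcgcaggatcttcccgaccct
Sfrp5 (chr19:42202203-42202502, - strand): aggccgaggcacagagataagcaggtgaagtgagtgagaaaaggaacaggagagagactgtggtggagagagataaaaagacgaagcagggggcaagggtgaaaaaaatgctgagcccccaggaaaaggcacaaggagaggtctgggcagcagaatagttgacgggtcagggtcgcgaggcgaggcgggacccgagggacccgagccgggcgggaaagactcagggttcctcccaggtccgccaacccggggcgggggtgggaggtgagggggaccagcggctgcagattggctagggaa

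The Dkk1 window held 2 TCF/LEF-type matches, starting 117 and 98 bases before the RefSeq gene start, and TATAAA 54 bases before it. By the GENCODE range of Dkk1, which ends at base 30549665 on the - strand, these letters lie inside the gene. None of the other 6 member windows held TCF/LEF-type letters, and Dkk2 alone among them held TATAAA, 32 bases before its start. Over all 32851 windows of the same length, 16.876% held a TCF/LEF-type match and 8.319% held TATAAA. A match is a description of letters and not a shown binding site.

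Between Day 2 and Day 7 the members changed in different directions. Sfrp5, Sfrp4, Frzb and Dkk3 rose, whereas Dkk1, Sfrp2, Sost, Sfrp1 and Wif1 fell, and Dkk2 did not pass the test. Thus 9 of the 10 members were called (edgeR quasi-likelihood test, adjusted p under 0.05), 4 higher and 5 lower, where 70.3% of all 18987 genes tested were called, 35.7% higher and 34.6% lower. The share called is high throughout this series, so a call alone does not set a member apart. The members' median log2 fold change was -0.55, beside 0.01 over all genes. Of all genes, 6772 were higher and 6570 lower, and with library totals alone in place of TMM factors 4647 were higher and 9325 lower, with the median at -0.27.

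Among the secreted Frizzled-related proteins, Sfrp2 (chr3:83766321-83774316 on GRCm38) had 254 and 216 CPM in the replicates of Day 2 (A, then B, here and below), 35.3 and 34.8 at Day 7, then 23.8 and 28.7 at Day 10. It fell 6.71-fold from Day 2 to Day 7 (log2 fold change -2.75 ± 0.10 SE, edgeR adjusted p = 7.43e-08) and a further 1.34-fold to Day 10 (-0.42 ± 0.10, edgeR adjusted p = 0.00785). The libraries of the 3 days did not overlap, and the later fall was no longer called without Day 10 replicate A (-0.29). An antisense gene, Gm26771, overlaps Sfrp2 on the other strand and has a feature of its own in the matrices.

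Sfrp1 (chr8:23411502-23449632), expressed in many mesenchymes, followed the same downward course at every step. Its levels were 48.6 and 43.2 CPM at Day 2, 19.3 and 21.5 at Day 7, then 9.93 and 9.49 at Day 10. It fell by 1.17 ± 0.07 on the log2 scale between Day 2 and Day 7 (edgeR adjusted p = 1.39e-06) and by 1.07 ± 0.08 between Day 7 and Day 10 (edgeR adjusted p = 2.61e-05).

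Frzb (chr2:80411970-80447625), known from developing cartilage, went the other way. It had 19.1 and 19.4 CPM at Day 2, 59.8 and 54.3 at Day 7, then 59.8 and 53.5 at Day 10. The Day 7 level was 2.96-fold the Day 2 level (1.56 ± 0.07, edgeR adjusted p = 1.95e-07). Day 7 and Day 10 overlapped, with a log2 difference between -0.17 and 0.15 (95% interval).

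Sfrp5 (chr19:42197971-42202252) showed the largest fold of the 10 members. Its 0.212 and 0.167 CPM at Day 2, from 49 and 34 UMIs, became 12.2 and 12.4 CPM at Day 7, then 9.01 and 9.53 at Day 10. This was a 64.2-fold rise to Day 7 (6.0 ± 0.10, edgeR adjusted p = 2.29e-09), followed by a 1.33-fold fall to Day 10 (-0.41 ± 0.07, edgeR adjusted p = 0.00145). Again no library of a day overlapped those of another.

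Sfrp4 (chr13:19623104-19632994), associated with bone in adult tissue, was low at every day and rose at each step. It had 0.0649 and 0.103 CPM at Day 2, 0.517 and 0.447 at Day 7, then 1.80 and 2.31 at Day 10. Raw counts were 15 and 21 UMIs at Day 2 and 441 and 512 at Day 10, which leaves the Day 2 level poorly resolved. The rise from Day 2 to Day 10 was 24.5-fold (4.62 ± 0.25, edgeR adjusted p = 3.2e-07).

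Of the ligands of LRP5 and LRP6, Dkk1 (chr19:30545863-30549665) fell the most. It had 52.6 and 40.1 CPM at Day 2, 3.18 and 3.1 at Day 7, then 2.56 and 4.16 at Day 10. The fall to Day 7 was 14.8-fold (-3.88 ± 0.21, edgeR adjusted p = 5.35e-07). The Day 10 libraries lay on either side of those of Day 7, and this step did not pass the test (0.09 ± 0.21, edgeR adjusted p = 0.735).

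Dkk2 (chr3:132085292-132180304) stayed within a narrow range, with 15.4 and 16.7 CPM at Day 2, 13.3 and 16.2 at Day 7, then 11.9 and 13.5 at Day 10. Neither consecutive step passed (-0.12 ± 0.10 and -0.22 ± 0.10 on the log2 scale, edgeR adjusted p = 0.295 and 0.094). The earlier step was called without TMM factors (-0.41) or without Day 7 replicate B (-0.26), and the later step with all barcodes (-0.30), with the replicate letter as a block (-0.22) or without Day 7 replicate A (-0.36). Day 10 was 1.27-fold below Day 2 (-0.34 ± 0.10, edgeR adjusted p = 0.0115). That call was lost without Day 10 replicate A (-0.24) or without Day 2 replicate B (-0.28).

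Dkk3 (chr7:112116017-112159057) rose at both steps, from 30.5 and 28.8 CPM at Day 2 through 48.1 and 44.3 at Day 7 to 63.6 and 62.2 at Day 10. The total rise was 2.12-fold (1.09 ± 0.06, edgeR adjusted p = 3.39e-07) and the days did not overlap.

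Sost (chr11:101962458-101967015), whose product sclerostin is made by osteocytes in mature bone, was near the limit of detection. It had 142 and 89 UMIs at Day 2, 21 and 15 at Day 7, then 39 and 103 at Day 10, equal to between 0.0807 and 0.614 CPM. Day 7 was 5.56-fold below Day 2 (-2.48 ± 0.50, edgeR adjusted p = 0.00187). Day 10 was above Day 7 (1.71 ± 0.51, edgeR adjusted p = 0.0219), but the call was lost without Day 10 replicate B (0.76), Day 7 replicate A (1.93) or Day 7 replicate B (1.52). The 2 Day 10 libraries, at 0.159 and 0.464 CPM, differed from each other more than those of any other day.

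Wif1 (chr10:121033960-121100650), which binds WNT ligands, had 25.3 and 24.5 CPM at Day 2, 13.3 and 11.8 at Day 7, then 14.7 and 16.2 at Day 10. It fell 1.98-fold to Day 7 (-0.98 ± 0.07, edgeR adjusted p = 3.5e-06) and rose 1.23-fold to Day 10 (0.29 ± 0.07, edgeR adjusted p = 0.0095). The later rise was no longer called without Day 10 replicate B (0.23) or Day 7 replicate B (0.21).

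**Figure D1:**
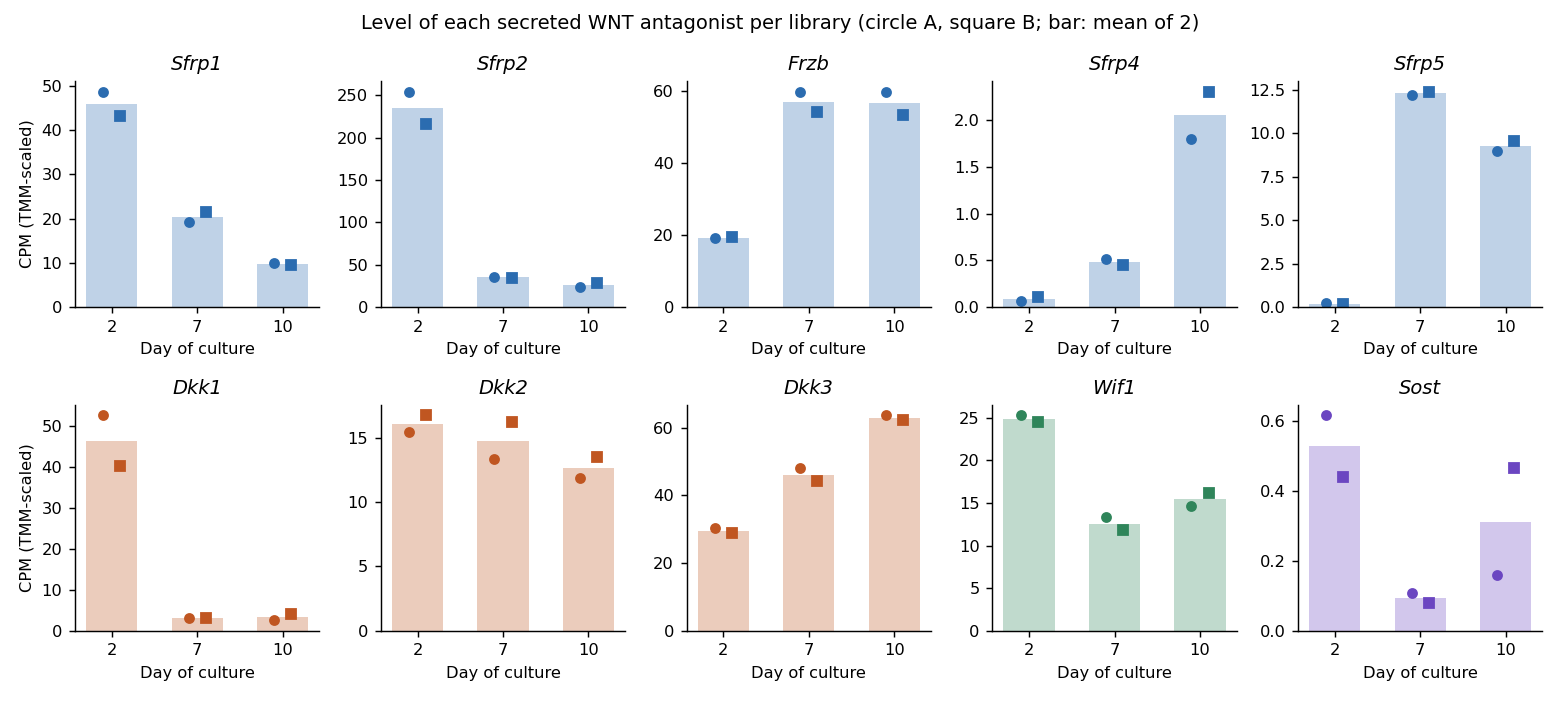
Level of each member in each library, in TMM-scaled CPM on a linear axis from 0, by day of culture, with circles for replicate A, squares for replicate B and a bar at the mean of the 2. Sfrp2 drops from 254 and 216 CPM at Day 2 to 35.3 and 34.8 at Day 7, while Sfrp5 goes from 0.212 and 0.167 to 12.2 and 12.4.

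From Day 7 to Day 10, 4 members were higher (Sfrp4, Sost, Dkk3, Wif1), 3 lower (Sfrp1, Sfrp2, Sfrp5) and 3 not called (Frzb, Dkk1, Dkk2), where 52.2% of all genes were called, 26.3% higher and 25.9% lower. Without Day 10 replicate B or without Day 7 replicate B, 2 were higher, since Sost and Wif1 lost the call in both. The members' median log2 fold change was 0.04, beside -0.02 over all genes. From Day 2 to Day 10, 4 members were higher (Sfrp4, Sfrp5, Frzb, Dkk3) and 5 lower (Sfrp1, Sfrp2, Dkk1, Dkk2, Wif1), where 77.3% of all genes were called, 39.0% higher and 38.2% lower, and Sost was not called (-0.77 ± 0.42, edgeR adjusted p = 0.123). Without Day 10 replicate B, Sost passed at -1.71. The Day 2 and Day 7 libraries each entered more than 1 of these comparisons, so the comparisons are not independent.

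**Figure D2:**
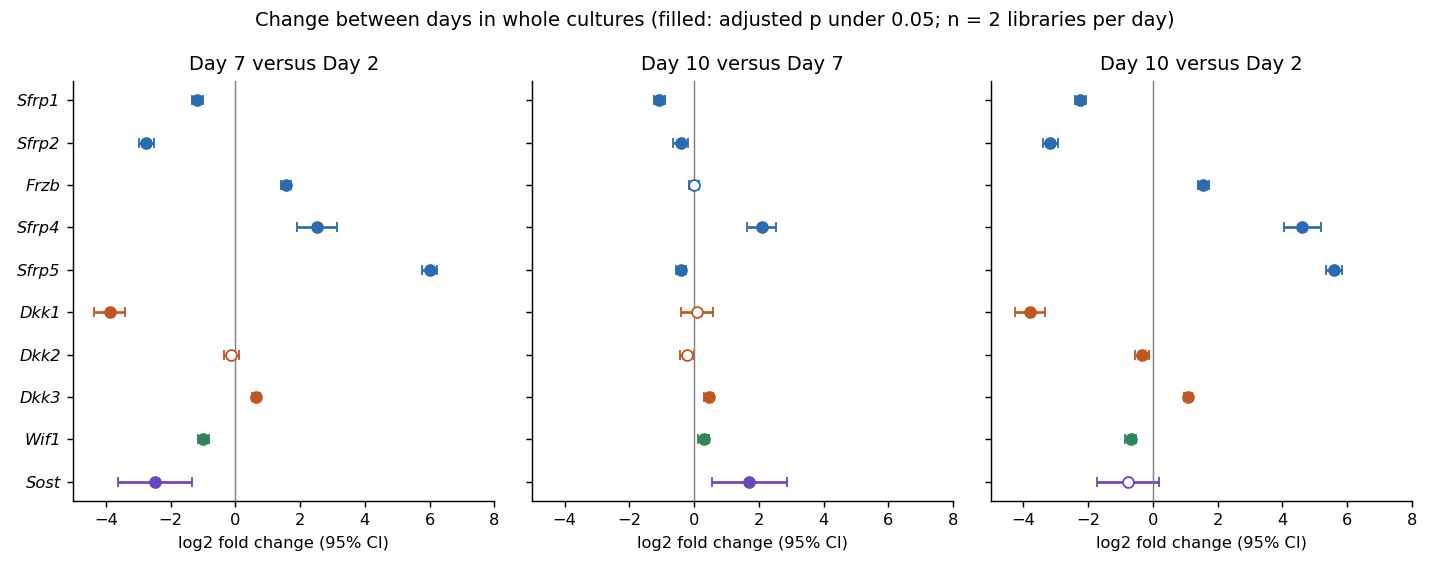
Log2 fold change of each member between days in whole-culture sums, with 95% intervals. Filled points have an adjusted p under 0.05 and open points do not, with n = 2 libraries per day. Sfrp5 at 6.0 and Dkk1 at -3.88 mark the ends of the range from Day 2 to Day 7, and the changes from Day 7 to Day 10 lie between -1.07 and 2.09.

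The other genes of the pathway were given by 4 lists. Of 18 receptors and co-receptors, 7 were higher and 7 lower at Day 7 than at Day 2, near the 35.7% and 34.6% of all genes, with a median log2 fold change of 0.10. Kremen2, a Dickkopf co-receptor, fell by 3.75 ± 0.32 on the log2 scale (edgeR adjusted p = 9.1e-06) and Fzd10 by 3.06 ± 0.28 (edgeR adjusted p = 1.38e-05), both from low levels, while Fzd6 rose by 1.86 ± 0.08 (edgeR adjusted p = 1.9e-07). Kremen2 had 3.76 and 2.95 CPM at Day 2 and 0.348 and 0.145 at Day 7, so its 2 days did not overlap. Of 9 tested among 11 other secreted or surface inhibitors, 2 were higher and 5 lower (35.7% and 34.6% of all genes), with a median of -0.45. Sostdc1, a relative of sclerostin that also binds BMPs, fell from 39.7 and 38.7 CPM to 9.91 and 10.9 (-1.92 ± 0.13, edgeR adjusted p = 2.44e-06). Shisa3, which retains Frizzled receptors inside the cell, fell by 4.22 ± 0.16 (edgeR adjusted p = 6.78e-08).

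Of 7 tested among 8 genes commonly induced by β-catenin signalling, 5 were lower and 1 higher at Day 7 (34.6% and 35.7% of all genes), with a median of -0.94. Axin2, a feedback inhibitor often read as a reporter of the pathway, fell from 10.4 and 12.7 CPM to 4.11 and 4.25 (-1.46 ± 0.10, edgeR adjusted p = 2.79e-06). Nkd2, another feedback inhibitor, and the nuclear factor Lef1 fell by 1.78 ± 0.10 and 1.20 ± 0.09 (edgeR adjusted p = 5.95e-07 and 3.86e-06). From Day 7 to Day 10 the list divided, with 4 higher and 2 lower (26.3% and 25.9% of all genes): Tcf7 rose by 2.73 ± 0.14 (edgeR adjusted p = 8.1e-06) and Axin2 fell by a further 1.08 ± 0.11 (edgeR adjusted p = 0.000134). Of 14 tested among 19 WNT ligands, 3 were higher and 8 lower at Day 7, where 35.7% and 34.6% of all genes were. Their median was -0.77. Wnt7b (-3.21 ± 0.42, edgeR adjusted p = 0.000143) and Wnt8b (-2.55 ± 0.48, edgeR adjusted p = 0.00132) fell, both from low levels. At Day 10, 5 were higher and 0 lower than at Day 7, where 26.3% and 25.9% of all genes were. Wnt10a went from 0.177 and 0.246 CPM at Day 2 to 2.33 and 2.28 at Day 7, then 6.61 and 11.1 at Day 10.

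To find which cells held each antagonist, the cells of each day were clustered again with the members and the marker genes left out of the features, and clusters were named "-like" from marker lists. Names were given only where at least 3 markers of a list were enriched in both libraries, and clusters without a name are called by number and leading genes. Unnamed clusters held 26.2% (replicate A) and 59.0% (replicate B) of the Day 2 cells, 44.5% and 36.6% at Day 7, then 62.1% and 67.4% at Day 10. At Day 2, clusters 0 and 3 came mostly from replicate B, with 5251 and 2774 of its cells against 466 and 85 of replicate A. Cluster levels are CPM of the UMIs summed over a cluster, without TMM factors, as mean ± SD over the 2 libraries of a day, and they are described without a test since the cells were clustered on the same counts.

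At Day 2, the cluster of highest level differed between antagonists. Sfrp2 was highest in joint interzone-like cells (cluster 5, led by Pthlh, Eomes and Gdf5), at 660 ± 66.9 CPM, and the next cluster had 341 ± 35.2 CPM. It was broad, with a median of 208 CPM over the clusters. Dkk3 was also highest in cluster 5, with 86.0 and 85.2 CPM in replicates A and B. The unnamed cluster 7, of low depth, came close with 74.5 ± 14.1 CPM of Dkk3. Cluster 7 was also the next cluster for Dkk1, Wif1, Frzb and Sfrp1. Chondrocyte-like cells (cluster 6, led by Cytl1, Hapln1 and Acan) were highest for 3 members. Dkk1 reached 227 and 166 CPM in them against a mean of 77.2 in the next cluster, Wif1 107 and 101 against 43.4, and Frzb 45.8 and 45.9 against 37.9. These cells held 43.7% and 42.5% of all Dkk1 UMIs and 42.6% and 42.5% of all Wif1 UMIs, from 11.3% and 11.7% of all UMIs. At a lower cluster resolution the highest cluster for Dkk1, Wif1 and Frzb was instead an unnamed one led by B830012L14Rik, at means of 87.0, 49.5 and 41.9 CPM. At a higher resolution Sfrp2 reached a mean of 1185 CPM in a cluster led by Rdh10, Aldh1a2 and Gdf5, which was named interdigital mesenchyme-like and was also highest for Dkk3 (113 CPM).

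Sfrp1 was highest in tenocyte-like cells (cluster 1, led by Pkdcc, Aspn and Meis2), at 82.6 and 79.7 CPM. The next cluster, an unnamed one of low depth, overlapped at 86.4 and 52.4 CPM. This placement did not hold in the other clusterings. At the lower resolution Sfrp1 was highest in the same unnamed cluster as Dkk1, Wif1 and Frzb, led by B830012L14Rik (75.5 CPM). It was highest in another unnamed cluster at the higher resolution (112 CPM) and in a joint interzone-like one without integration (96.7 CPM). Dkk2 had 36.9 and 38.4 CPM in contractile mesenchyme-like cells (cluster 2, led by Krt18 and Tm4sf1) and 21.6 and 56.8 in interdigital mesenchyme-like cells (cluster 8, led by Msx1 and Meox2), so these 2 clusters could not be ordered. The erythroid-like cluster gave 84.2 and 0 CPM of Dkk2 from 6 and 0 UMIs in 25 and 15 cells, and is not read. Sfrp4 and Sfrp5 stayed at or under a mean of 1.44 CPM and Sost at or under 0.984 CPM in every cluster of at least 10 cells per library.

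At Day 7, Frzb and Sfrp5 were highest in the same chondrocyte-like clusters. Frzb reached 151 and 115 CPM in cluster 4 and 83.6 and 83.8 in cluster 1 (led by Snorc, Scrg1 and S100b). Cluster 4 was of shallow cells led by Xist, Tsix and B830012L14Rik, with Col11a2 and Wwp2 further down among their leading genes. Sfrp5 had 22.8 and 16.3 CPM in cluster 4 and 17.5 and 19.3 in cluster 1, which overlap. Unnamed clusters overlapped them too. Cluster 0, with 83.0 ± 28.6 CPM of Frzb, overlapped cluster 1, and cluster 10, with 18.0 ± 2.58 CPM of Sfrp5, overlapped both. Cluster 13 gave 0 and 42.2 CPM of Sfrp5 from 12 and 41 cells, so its level was not resolved. Together the chondrocyte-like cells held 65.9% and 68.0% of Frzb UMIs and 64.6% and 65.1% of Sfrp5 UMIs, from 41.0% and 39.4% of all UMIs. At the higher resolution the highest means were 213 CPM of Frzb and 49.8 CPM of Sfrp5, each in a chondrocyte-like cluster.

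Sfrp1 and Sfrp2 were highest in Day 7 tenocyte-like cells (cluster 6, led by Igf1, Gpha2 and Tnmd), at 43.3 and 56.5 CPM and at 108 and 112 CPM. Joint interzone-like cells (cluster 5, led by Fabp4, Gas1 and Osr1) followed for Sfrp2 with 72.5 and 88.2 CPM, and had the highest mean of Dkk3, with 104 and 102 CPM, overlapped by the 109 and 62.4 of cluster 3. That cluster, led by Uty, had all 6 perichondrium markers enriched but stayed unnamed. At the lower resolution Dkk3 was highest in a cluster named perichondrium-like but led by mt-Nd4l, mt-Atp8 and mt-Nd6 (82.8 ± 30.4 CPM). At the higher resolution its highest cluster was a perichondrium-like one led by Col1a1, Eln and Ltbp2 (150 CPM). Without integration it was a joint interzone-like one (114 CPM). Dkk2 was level between clusters 6 and 5, at 41.5 and 51.4 CPM in tenocyte-like and 43.4 and 48.6 in joint interzone-like cells. Wif1 had 57.6 and 55.2 CPM in myocyte-like cells, from 50 and 10 UMIs in 83 and 58 cells, and 31.4 and 34.1 in joint interzone-like cells. Dkk1 was highest in the contractile mesenchyme-like cluster 2, at 7.11 and 7.51 CPM. That cluster was led by Prg4, the lubricin gene of joint surfaces. It held 61.4% and 67.0% of all Dkk1 UMIs, from 25.7% and 25.7% of all UMIs. Only 169 and 148 cells of the Day 7 libraries had a Dkk1 UMI.

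At Day 10, chondrocyte-like cells remained highest for Frzb and Sfrp5. Frzb reached 404 and 339 CPM in cluster 10 (led by Col9a3, Comp and Col11a2) and 155 and 149 in cluster 0 (led by Snorc and Scrg1). Sfrp5 had 28.5 and 49.7 CPM in the former and 30.8 and 35.5 in the latter. Cluster 10 was of shallow cells, with medians of 8377 and 8151 UMIs against 36431 and 33404 in cluster 0. Chondrocyte-like cells held 82.0% and 79.5% of Sfrp5 UMIs and 69.7% and 66.3% of Frzb UMIs, from 23.6% and 21.7% of all UMIs. Bone-like cells (cluster 9, led by Ibsp, Ifitm5 and Slc13a5) were highest for Dkk1, with 22.9 and 30.2 CPM against a mean of 8.78 in the next cluster, and for Wif1, with 63.4 and 81.6 CPM against 49.1. They held 39.7% and 34.5% of Dkk1 UMIs and 19.2% and 24.0% of Wif1 UMIs, from 4.17% and 4.54% of all UMIs. A bone-like cluster was also highest for Dkk1 in the other clusterings, with means of 9.49 CPM at the lower resolution, 30.03 at the higher and 69.0 without integration. Wif1 was highest in a bone-like cluster at the higher resolution and without integration, and in an unnamed one led by Car9 (62.4 CPM) at the lower.

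Sfrp1, Sfrp2, Sfrp4, Dkk2 and Dkk3 were highest in unnamed Day 10 clusters. Cluster 3, led by Wfdc1, Prg4 and Adcyap1, had 5.70 and 7.88 CPM of Sfrp4, 34.3 and 46.3 of Dkk2 and 43.0 and 68.2 of Sfrp2. Cluster 6, led by Gpha2, Tnmd and Igf1, had 33.1 and 31.0 CPM of Sfrp1 and 53.5 and 61.1 of Sfrp2, so the 2 clusters overlapped for Sfrp2. These levels moved with the clustering: Dkk2 was highest in a cluster led by Car9 in all 3 other clusterings, at means of 130, 117 and 102 CPM (lower resolution, higher resolution, no integration), which was named articular-like without integration and unnamed otherwise. Sfrp2 was highest in the cluster led by Car9 at the lower resolution (181 CPM) and without integration (145 CPM). At the higher resolution Sfrp2 was highest in one led by Gpha2 (253 CPM), which also had 141 CPM of Sfrp1 and 13.9 of Sfrp4. Sfrp1 was highest in a bone-like cluster led by Ibsp and Ifitm5 at the lower resolution (23.6 CPM). Cluster 8, led by Cemip, Pappa and Thbs1, had 238 and 182 CPM of Dkk3, above the 109 and 114 of cluster 3, in shallow cells with medians of 7648 and 6886 UMIs. It also had all 6 perichondrium markers enriched and stayed unnamed for its depth, and at the higher resolution the cluster led by Pappa, Cemip and Thbs1 was named perichondrium-like (209 CPM). Dkk3 was highest in unnamed clusters in the other clusterings. These were led by Cemip and Uty at the lower resolution (135 CPM) and by Lars2 and Adamts6 without integration (142 CPM). Sost had 3 and 22 UMIs in bone-like cells, or 0.276 and 2.08 CPM, which is too few to place it.

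**Figure D3:**
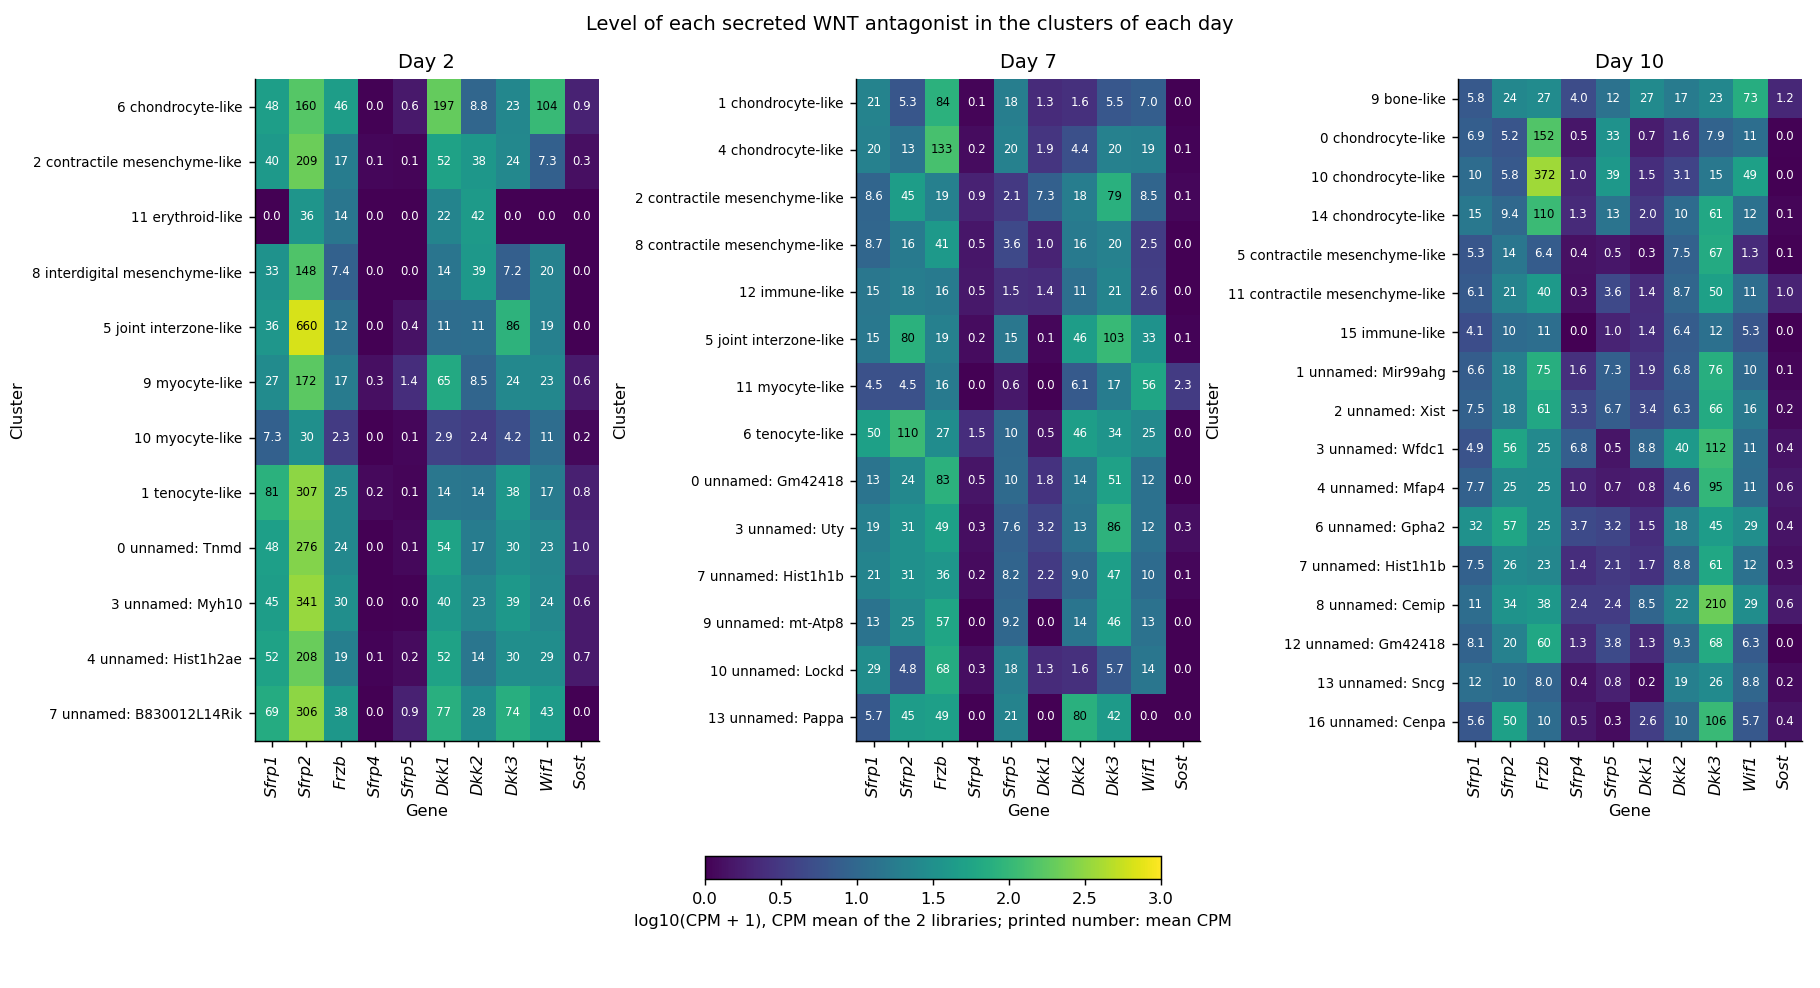
Mean CPM of each member in each cluster of at least 10 cells per library at Days 2, 7 and 10, with colour as log10(CPM + 1), the number printed in each cell, and unnamed clusters given by their leading gene. The highest Dkk1 level is in chondrocyte-like cells at Day 2 (197 CPM) and in bone-like cells at Day 10 (26.5 CPM), while Frzb is highest in chondrocyte-like cells at all 3 days (45.8, 133 and 372 CPM).

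**Figure D4:**
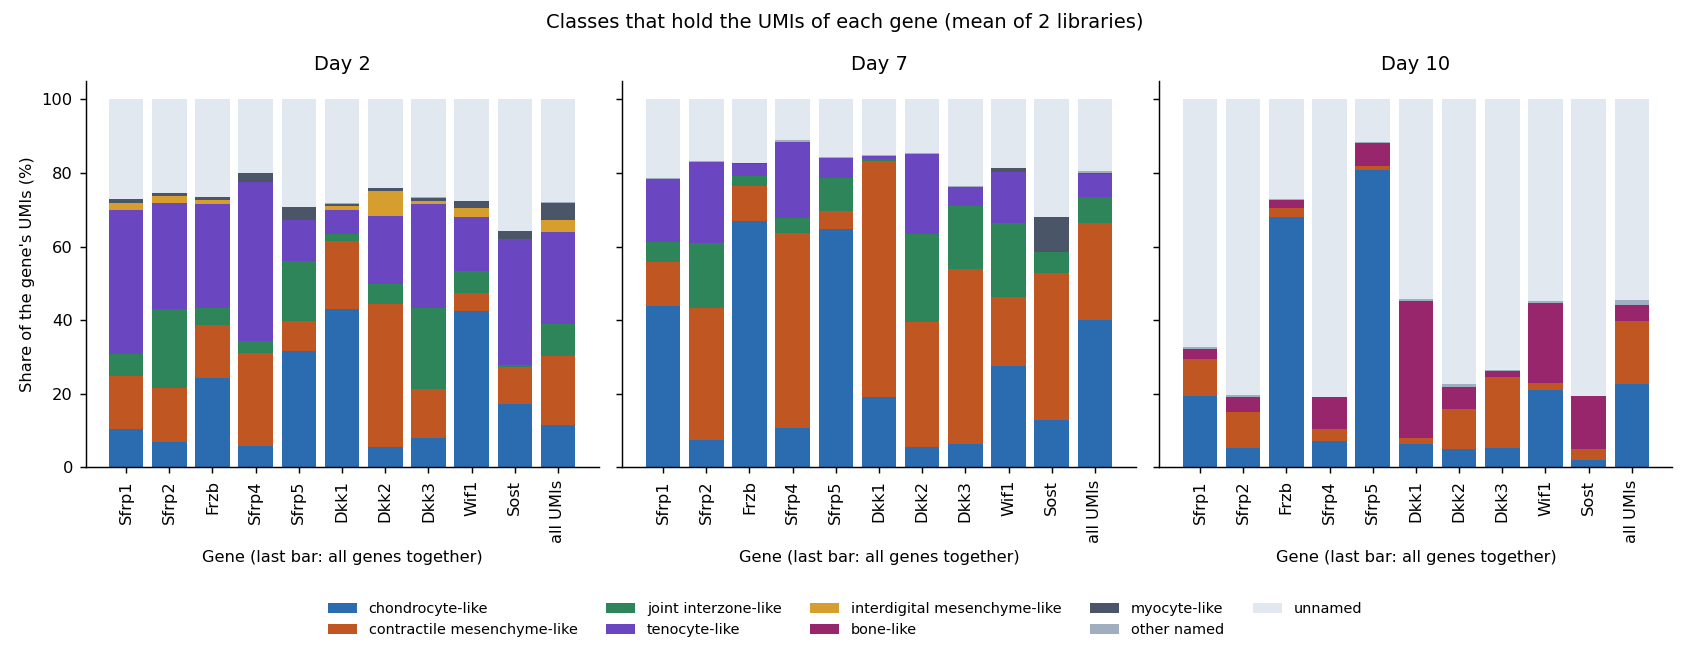
Share of each member's UMIs held by each named class, mean of 2 libraries, with the share of all UMIs in the last bar. Chondrocyte-like cells hold 82.0% and 79.5% of Sfrp5 UMIs in the Day 10 libraries but 5.05% and 5.34% of Sfrp2 UMIs.

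Cells differed in how many carried each gene. Sfrp2 was detected in 71.7% and 54.7% of Day 2 cells, 15.7% and 16.2% of Day 7 cells and 15.3% and 15.0% of Day 10 cells. After thinning each cell to 1000 UMIs the shares were 22.1% and 21.5%, 3.09% and 2.73%, and 2.20% and 2.24%. Dkk1 was found in fewer cells, 15.7% and 11.5% at Day 2 and between 1.20% and 2.66% later, yet with up to 85 UMIs in a cell. The 1% of cells with the most Dkk1 held 94.4% and 95.7% of its UMIs at Day 7 and 83.3% and 79.7% at Day 10. At Day 2 they held 30.3% and 52.0%. For Frzb, detected in 27.2% and 14.1% of Day 2 cells, that share was 12.8% and 22.2%. Sfrp4 was detected in 2.25% and 2.44% of Day 10 cells and Sost in 0.260% and 0.553%. Doublets were not called, and the upper limit of 7500 genes per cell was the only step against them.

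Immune-like cells, which are not a known source of these genes, gave a level that free RNA can reach. At Day 10, 118 and 164 such cells, with medians of 21231.5 and 21872 UMIs, had a UMI of Frzb in 16.1% and 12.2% and of Dkk3 in 13.6% and 12.2%. Chondrocyte-like cells of the same day had Frzb in 89.2% and 87.4% of cells (exact 95% intervals 87.8 to 90.6% and 85.7 to 89.0%) and Dkk3 in 20.3% and 21%. Dkk2 was found in 4.11% and 4.76% of chondrocyte-like cells against 4.24% and 7.93% of immune-like cells, and is read as background there. Sfrp4 and Sost were seen in 0 of the immune-like cells, which allows shares of up to 3.08% and 2.22% of cells with a UMI and sets no limit on cells expressing genes this rare. These intervals cover counting error only.

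Changes between days were then tested within classes, which sets the class's share of the culture aside, although free RNA from other cells can still enter the sums and its part was not tested. Classes were tested where at least 50 cells were present in each library. Chondrocyte-like cells had 2 members higher and 7 lower at Day 7 than at Day 2, with 71.2% of 15936 genes called, 36.8% higher and 34.4% lower, and a member median of -1.52 beside 0.04 over all genes. Dkk1 went from 227 and 166 CPM to 1.28 and 1.5 (-6.68 ± 0.18, edgeR adjusted p = 8.6e-13), and Wif1 from 107 and 101 to 9.30 and 6.93 (-3.21 ± 0.10, edgeR adjusted p = 2.4e-12). Sfrp2 fell from 173 and 147 CPM to 6.46 and 5.70 (-4.25 ± 0.11, edgeR adjusted p = 8.3e-13). In immune-like cells of Day 7, 28 and 43 in number, Dkk1 had 1.09 and 1.75 CPM and Sfrp2 16.4 and 19.2, so both genes ended at or under that level and the size of these falls is limited by it. Frzb rose, from 45.8 and 45.9 to 90.04 and 87.0 CPM (1.42 ± 0.06, edgeR adjusted p = 8.2e-11), and Sfrp5 rose from 0.643 and 0.527 to 18.0 and 19.0 CPM (5.44 ± 0.15, edgeR adjusted p = 1.5e-12). The other members called lower were Dkk2 (-1.76), Dkk3 (-1.28), Sfrp1 (-0.72) and Sost. Dkk2 and Dkk3 ended at means of 1.88 and 6.92 CPM, also under the 11.5 ± 10.0 and 21.4 ± 19.1 of Day 7 immune-like cells. Sfrp4 did not pass (1.83 ± 0.86, edgeR adjusted p = 0.073).

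From Day 7 to Day 10 the chondrocyte-like cells had 6 members higher and 1 lower, with 46.7% of genes called, 23.0% higher and 23.7% lower. Frzb rose to 166 and 156 CPM (0.80 ± 0.05, edgeR adjusted p = 1.2e-07), Sfrp5 to 29.4 and 33.3 (0.69 ± 0.07, edgeR adjusted p = 2.7e-06) and Wif1 to 13.3 and 13.8 (0.67 ± 0.10, edgeR adjusted p = 0.00014). Sfrp4 (2.24), Dkk3 (0.95) and Dkk2 (0.40) were the others called higher, with Dkk2 at 2.58 and 2.61 CPM against 5.50 and 7.36 in immune-like cells, so its change lay within the background. Dkk3, at 8.12 and 5.72 CPM at Day 7 and 12.5 and 15.7 at Day 10, also lay near the immune-like level of 34.9 and 7.87, then 13.7 and 10.1 CPM. Sfrp4 was low, at means of 0.120 CPM at Day 7 and 0.618 at Day 10. Sfrp1 fell to 7.14 and 8.72 CPM (-1.47 ± 0.09, edgeR adjusted p = 3.3e-08), and Sfrp2, Dkk1 and Sost did not pass. Without Day 10 replicate B, Sfrp1, Sfrp2 and Dkk1 were all called lower, and without either Day 2 library Sfrp1 and Dkk1 were. Over the whole period, from Day 2 to Day 10, 3 members were higher (Frzb, Sfrp4, Sfrp5) and the other 7 lower, with 75% of genes called, 38.6% higher and 36.4% lower. At both later days the class comprised several clusters, clusters 1 and 4 at Day 7 and clusters 0, 10 and 14 at Day 10, against cluster 6 alone at Day 2.

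Contractile mesenchyme-like cells were tested for 9 members, without Sost. At Day 7, 5 members were higher and 4 lower than at Day 2, with 62.3% of 15425 genes called, 32.1% higher and 30.3% lower. Dkk3 rose from 22.7 and 25.2 CPM to 81.4 and 75.2 (1.84 ± 0.07, edgeR adjusted p = 8.4e-08), and Dkk1 fell from 58.6 and 45.1 to 7.02 and 7.37 (-2.73 ± 0.14, edgeR adjusted p = 2.7e-07). Sfrp5 (4.41), Sfrp4 (2.95), Frzb (0.34) and Wif1 (0.34) were also higher and Sfrp2 (-2.09), Sfrp1 (-2.08) and Dkk2 (-0.95) also lower, with Wif1 called in 1 of the 4 fits that left out a library of these days. Without Day 2 replicate A or without Day 7 replicate A, 3 were higher, since Frzb and Wif1 lost the call. Sfrp1 ended at a mean of 8.65 CPM at Day 7, under the 14.5 ± 5.69 CPM of immune-like cells. At Day 10, all 9 were lower than at Day 7, where 43.4% of genes were called and 21.9% were called lower. Dkk1 reached 0.385 and 0.212 CPM (-4.50 ± 0.28, edgeR adjusted p = 6.3e-06) and Wif1 fell from 8.81 and 7.89 to 1.84 and 1.38 CPM (-2.32 ± 0.15, edgeR adjusted p = 6.3e-06). Immune-like cells of Day 10 had 0.344 and 2.54 CPM of Dkk1 and 1.03 and 9.64 of Wif1, so both genes ended within or under that range. Sfrp1, Sfrp2, Frzb, Sfrp4, Sfrp5 and Dkk2 fell by 0.66 to 1.80 on the log2 scale, with Sfrp4 called in 1 of the 4 fits that left out a library of these days. Sfrp4 was low, at means of 0.914 CPM at Day 7 and 0.370 at Day 10. Frzb went from 21.3 and 17.9 to 7.96 and 7.03 CPM and Sfrp5 from 2.24 and 2.10 to 0.556 and 0.663, while immune-like cells had 22.9 and 9.62, then 10.995 and 11.4 CPM of Frzb and 2.18 and 0.874, then 0.687 and 1.27 of Sfrp5. In this class both genes lay under the immune-like level at Day 10. At Day 7 they were close to it in replicate A and above it in replicate B. Sfrp1, Sfrp2 and Dkk2 ended at means of 5.30, 14.1 and 7.51 CPM at Day 10. Immune-like cells had 4.11 ± 3.87, 10.1 ± 4.21 and 6.43 ± 1.31 CPM, so these genes also ended near that level. Dkk3 was the weakest of the 9, at 64.1 and 69.9 CPM (-0.19 ± 0.07, edgeR adjusted p = 0.049), and was lost in 4 of the fits that left out a library (-0.12 to -0.25). Over Days 2 to 10, 3 members were higher (Sfrp4, Sfrp5, Dkk3) and the other 6 lower, with 69.8% of genes called, 35.5% higher and 34.3% lower.

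The class was not the same group of clusters on each day. Cluster 2 of Day 2 had medians of 36157 UMIs in replicate A and 4487 in replicate B. The Day 7 cells were mostly the Prg4-led cluster 2, and those of Day 10 were clusters 5 and 11, led by Actg2 and Des. The Prg4-led cells of Day 10, in the unnamed cluster 3 described above, were outside the class. The part of this in the changes was not tested.

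Joint interzone-like and tenocyte-like cells could be compared between Day 2 and Day 7 only. Of 8 members tested in the former, 5 were higher and 3 lower, with 65.3% of 13951 genes called, 33.3% higher and 32.0% lower. Dkk2 rose from 11.6 and 10.7 CPM to 43.4 and 48.6 (2.31 ± 0.10, edgeR adjusted p = 5.5e-14), whereas Sfrp2 fell from 707 and 613 to 72.5 and 88.2 (-2.77 ± 0.10, edgeR adjusted p = 1.2e-15). Sfrp5 (5.35), Wif1 (1.02), Frzb (0.97) and Dkk3 (0.53) were also higher, and Dkk1 (-5.97) and Sfrp1 (-1.06) also lower. Sfrp1 and Frzb ended at means of 14.7 and 19.3 CPM, near the 14.5 ± 5.69 and 16.3 ± 9.40 of Day 7 immune-like cells. Of 10 members tested in tenocyte-like cells, 5 were higher and 4 lower, with 66.1% of 14689 genes called, 33.6% higher and 32.5% lower. Dkk2 rose there too, from 11.9 and 15.1 CPM to 41.5 and 51.4 (2.06 ± 0.11, edgeR adjusted p = 3.4e-13), and Sfrp2 fell from 336 and 277 to 108 and 112 (-1.21 ± 0.08, edgeR adjusted p = 2.8e-11). Sfrp5 (6.90), Sfrp4 (3.25), Wif1 (0.85) and Frzb (0.42) were also higher and Dkk1 (-4.70) and Sfrp1 (-0.43) also lower, while Dkk3 did not pass (0.12). Sost was at 0 UMIs in the Day 7 tenocyte-like cells of both libraries, so no fold is given for it. Each class was 1 cluster per day with other leading genes at each, and Tnmd, a tendon gene among those leading the Day 7 tenocyte-like cells, led the unnamed cluster 0 at Day 2 and not the tenocyte-like one. The part of this in the changes was not tested. Genes of the dissociation response were enriched in these clusters, 5 of 11 in the joint interzone-like cells of Day 2, 9 in those of Day 7 and 7 in the tenocyte-like cells of Day 7, against 1 at most in the chondrocyte-like clusters of those days, and their part in the changes was not tested.

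Myocyte-like cells of Day 2 and Day 7 had 3 members higher and 2 lower of 7 tested, with 18.3% of 11318 genes called, 9.65% higher and 8.65% lower. At Day 2 the class joined cluster 9 (23 and 518 cells, medians of 4223 and 2558.5 UMIs) and cluster 10 (312 and 188 cells, 27528.5 and 33781.5 UMIs). At Day 7 it was the shallow cluster 11 (1610 and 1242 UMIs), and the part of this in the changes was not tested. Wif1 rose from 10.8 and 14.5 CPM to 57.6 and 55.2 (2.32 ± 0.30, edgeR adjusted p = 2.5e-05). Dkk1 had 8.70 and 7.25 CPM at Day 2 and 0 UMIs at Day 7. Its Day 2 level lay under the 21.8 ± 8.90 CPM of erythroid-like cells of that day. Frzb (2.03) and Dkk3 (1.77) were also higher and Sfrp2 (-3.56) also lower, while Sfrp1 and Dkk2 did not pass. At Day 7 Frzb had 14.98 and 16.6 CPM and Dkk3 23.1 and 11.05, within the range of immune-like cells of that day (22.9 and 9.62 CPM of Frzb, 34.9 and 7.87 of Dkk3). Sfrp2 had a mean of 50.3 CPM at Day 2, within the spread of erythroid-like cells of that day (35.8 ± 28.8). It was above the 10.5 ± 14.8 CPM of Day 2 immune-like cells. Its Day 7 mean of 4.49 CPM lay under the 17.8 ± 2.03 of immune-like cells, so the size of its fall is limited by that level. Of these 5 calls, only those of Sfrp2 and Wif1 held without Day 2 replicate A, Day 2 replicate B or Day 7 replicate A.

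**Figure D5:**
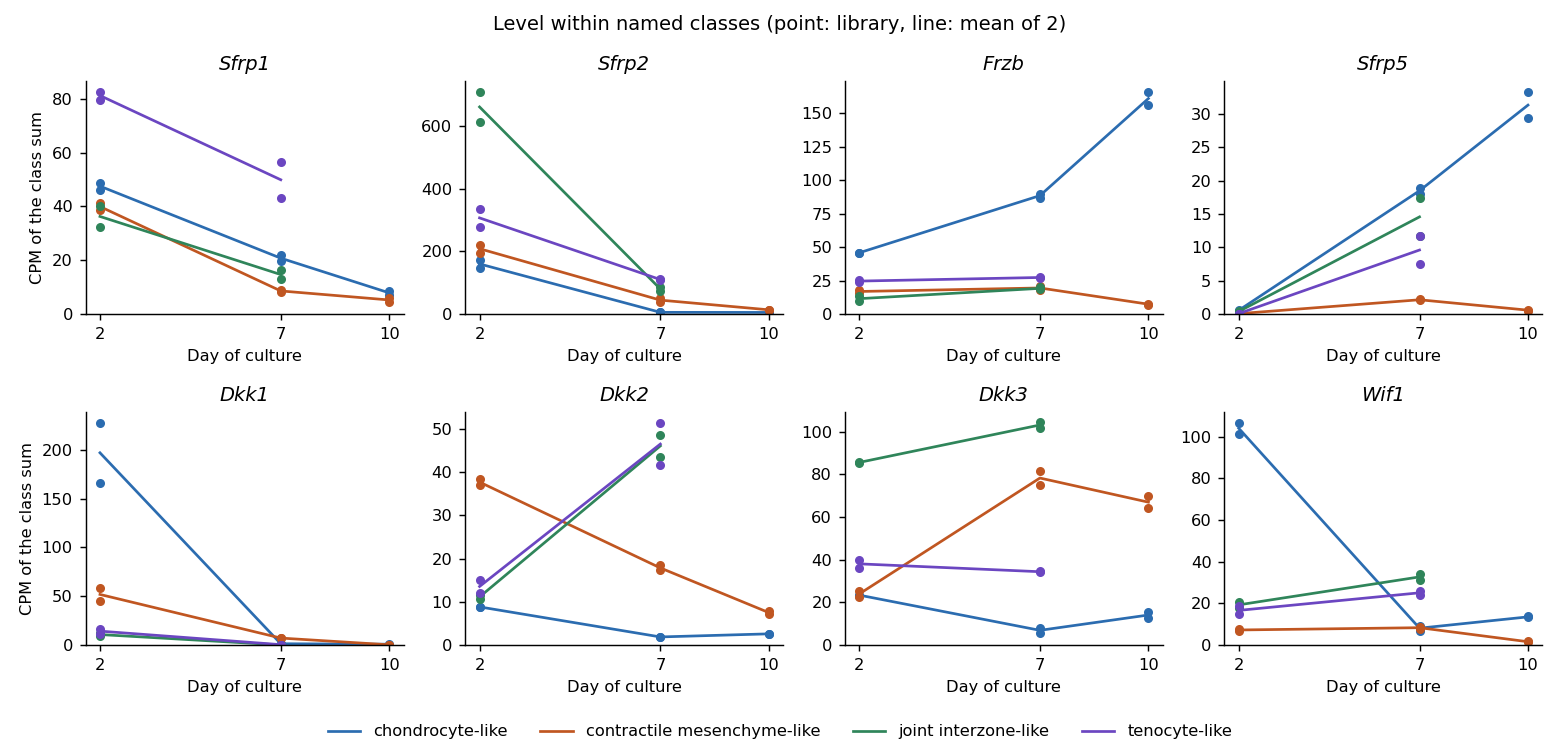
CPM of 8 members within the chondrocyte-like, contractile mesenchyme-like, joint interzone-like and tenocyte-like classes by day of culture, on linear axes from 0, with a point for each library and a line through the mean of 2. Dkk2 rises in joint interzone-like and tenocyte-like cells (to between 41.5 and 51.4 CPM at Day 7) and falls in contractile mesenchyme-like and chondrocyte-like cells, and Frzb and Sfrp5 rise to Day 10 in chondrocyte-like cells.

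Whether the changes differed between classes was tested directly, with the library as a block. Changes called in opposite directions in chondrocyte-like and another class, with their difference called, were found from Day 2 to Day 7 for 3 of 8 members against joint interzone-like, 2 of 10 against tenocyte-like and 2 of 9 against contractile mesenchyme-like cells, where 5.81%, 4.81% and 5.61% of all genes tested in both classes met this rule. From Day 7 to Day 10 they were found for 6 of 9 members against contractile mesenchyme-like cells, where 2.96% of genes met it. That class was mostly Prg4-led cells at Day 7, while the Prg4-led cells of Day 10 were outside it, and the part of this was not tested. The 3 comparisons from Day 2 to Day 7 share the chondrocyte-like values and are not independent. Between Day 2 and Day 7, Dkk2 changed by 4.04 ± 0.13 less on the log2 scale in chondrocyte-like than in joint interzone-like cells (edgeR adjusted p = 6.9e-11, 47.1% of 14862 genes called). Wif1 fell in chondrocyte-like cells and rose in tenocyte-like cells, a log2 difference of -4.07 ± 0.12 (edgeR adjusted p = 1.5e-13, 44.5% of 15535 genes called). Dkk3 likewise fell in chondrocyte-like and rose in contractile mesenchyme-like cells, a difference of -3.15 ± 0.11 (edgeR adjusted p = 1.6e-12, 49.0% of 16218 genes called). The chondrocyte-like falls of Dkk2 and Dkk3 ended at Day 7 means of 1.88 and 6.92 CPM, under the 11.5 ± 10.0 and 21.4 ± 19.1 of immune-like cells. Between Day 7 and Day 10, Frzb rose in chondrocyte-like cells and was called lower in contractile mesenchyme-like cells, ending there under the immune-like level, a difference of 2.12 ± 0.08 (edgeR adjusted p = 2.1e-08, 28.3% of 15914 genes called). Sfrp5 gave a contrast of the same kind and the same limit, with a difference of 2.46 ± 0.17 (edgeR adjusted p = 2.1e-06). Dkk1 was called lower in all 4 of these classes between Day 2 and Day 7. Its Day 2 levels in joint interzone-like and tenocyte-like cells lay under the erythroid-like and immune-like means of that day. It fell by 3.97 ± 0.10 more in chondrocyte-like than in contractile mesenchyme-like cells (edgeR adjusted p = 3.5e-14), with the chondrocyte-like level ending at that of immune-like cells. The chondrocyte-like fall was 1.98 ± 0.48 larger than that in tenocyte-like cells (edgeR adjusted p = 0.003). Against joint interzone-like cells the difference did not pass (-0.66 ± 0.67, edgeR adjusted p = 0.529).

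Across the 43 clusters of the 3 days with at least 10 cells per library, the levels of members were set beside those of 12274 genes. Sfrp4 and Sost, under 10 CPM in each of these clusters, were left out of this step. These correlations of log2(CPM + 1) describe clusters that share libraries and culture days. The genes closest to Frzb were Col27a1, a cartilage fibrillar collagen (Pearson r = 0.91), Wscd2 (0.91) and Fgfr3, a receptor of growth plate chondrocytes (0.90). Those closest to Sfrp5 were Fbln7 (0.93), Slc38a3 (0.90) and Cnmd, which encodes chondromodulin (0.89). Sfrp2 was closest to Bcl11a (0.88), Sfrp1 to C530008M17Rik (0.85), Dkk1 to Dab1 (0.83), Dkk2 to Kctd12b (0.81) and Wif1 to Plcb1 (0.77). Among the members themselves, Frzb and Sfrp5 were closest (0.78), followed by Sfrp2 and Dkk1 (0.72), and Sfrp2 and Sfrp5 were the most opposed (-0.56).

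Pairs of members were also counted in single cells. Of the Sfrp5-positive cells, 63.3% and 61.3% at Day 7, then 77.4% and 75.3% at Day 10 also had a Frzb UMI, where Frzb was found in 35.3%, 31.9%, 37.9% and 33.6% of all cells of those libraries. Sfrp2 and Dkk1, close across clusters, showed less in single cells: at Day 2, Dkk1 was in 15.5% and 12.8% of Sfrp2-positive cells and in 15.7% and 11.5% of all cells. Dkk1 and Wif1 (r = 0.37 across clusters), a pair chosen after its values were seen, overlapped more. Wif1 was detected in 50.5% and 30.1% of Dkk1-positive cells at Day 2 and in 38.0% and 43.4% at Day 10, against 24.9% and 13.4% and then 12.2% and 12.7% of all cells. Deeper cells carry more of every gene, and the part of depth in these shares was not tested.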

How the data were processed

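Per the labels and the methods of the study, the authors ran Cell Ranger 6.1.2 with STAR on GRCm38 (mm10) and deposited matrices of UMI counts per feature and cell barcode, with no normalization. Strand and feature settings beyond that were not given in the sources used here. The limits of the study were applied to each library: 200 to 7500 genes, at least 800 or 1000 UMIs, and at most 25 to 40% mitochondrial and 35 to 40% ribosomal UMIs. The 6 libraries kept 178022112 to 260245417 UMIs, and all 10 members passed the filter on low counts in whole-culture sums.

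Counts were summed per library over all kept cells, or over the cells of a class, and tested with the quasi-likelihood test of edgeR 4.0.16 (filterByExpr, TMM, all libraries in 1 fit, Benjamini-Hochberg adjustment over all genes tested, threshold 0.05). Cells were clustered per day with Seurat 5.3.0 (the study used 4.1.0), SCTransform (sctransform 0.4.2) and anchor integration of the 2 replicates, with the members and marker genes left out of the features. A cluster was named from at least 3 markers above the mean of the other clusters by 0.5 on the log2 scale (pseudocount of 5 CPM) in both libraries. It stayed unnamed where none of these was among its 50 leading genes, where it was shallow (median under 1/3 of its library) with none among its top 10, or where another list led its top genes, a rule set after leading genes were seen. Names may therefore differ from those of the study. For each class contrast only classes with at least 50 cells per library were used.

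The members, the pathway lists and the markers were chosen with earlier results of these data known. All 10 members are given in every comparison between days, those not tested in a class excepted, and of each pathway list at most the 3 called genes with the largest change. Among the genes most like a member, not every one is reported here. The scripts were tested on simulated data. Deviations from the day mean were little correlated between libraries of the same letter (-0.0094, -0.077 and 0.010). With 2 libraries per day such a deviation only reflects A against B. These values therefore cannot show whether a letter marks a shared pool of embryos or run, which the labels do not say. Alternatives were DESeq2 1.42.0, no TMM factors, no filter on low counts, all barcodes, a floor of 3000 UMIs per cell, each library left out, a replicate block, other cluster resolutions, merging without integration, and thinning to 1000 UMIs. The test between classes and the limit of 50 cells for clusters were added after the data were seen.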

Additional observations from a re-analysis of the deposited data

Results flagged for a closer look

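The change of some members between days went in opposite directions in chondrocyte-like cells and in another class, with each change called and the difference called as well, a rule met by 5.81%, 4.81%, 5.61% and 2.96% of all genes in the 4 pairs of classes and days. The pairs of Day 2 and Day 7 share the chondrocyte-like values, so that 1 change there can count in several. Between Day 2 and Day 7, the log2 change in chondrocyte-like cells minus that in joint interzone-like cells was -4.04 for Dkk2, -1.80 for Dkk3 and -4.21 for Wif1. Against tenocyte-like cells the difference was -3.81 for Dkk2 and -4.07 for Wif1, and against contractile mesenchyme-like cells it was -3.15 for Dkk3 and -3.58 for Wif1. Between Day 7 and Day 10, against contractile mesenchyme-like cells, the difference was 2.12 for Frzb, 1.58 for Dkk2, 1.12 for Dkk3, 2.97 for Wif1, 3.49 for Sfrp4 and 2.46 for Sfrp5. That class was mostly Prg4-led cells at Day 7, while the Prg4-led cells of Day 10 were outside it, and the part of this was not tested. The difference stayed called for all 13 values in each of the 4 fits that left out a library of the days compared, while the changes in both classes did so for 9. Wif1 (Day 2 to Day 7), Sfrp4 and Dkk3 (Day 7 to Day 10) were called in contractile mesenchyme-like cells in 1, 1 and 0 of these 4 fits. Dkk2 (Day 7 to Day 10) was called in chondrocyte-like cells in 1 of them, and its 1.81 to 2.61 CPM there lay below the 5.50 and 7.36 CPM of Day 10 immune-like cells. Sfrp4, with the largest of these differences, was low in both classes. Its Day 7 and Day 10 means were 0.120 and 0.618 CPM in chondrocyte-like and 0.914 and 0.370 in contractile mesenchyme-like cells. Dkk3 in chondrocyte-like cells lay within or close to the range of immune-like cells at both days. In contractile mesenchyme-like cells, Frzb, Sfrp5 and Wif1 ended within or under it at Day 10, and Dkk2 ended near it at a mean of 7.51 CPM. At Day 7, where the falls from Day 2 ended, chondrocyte-like Dkk2 lay under the 11.5 ± 10.0 CPM of immune-like cells. No group held enough libraries for a test of a library far from the rest.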

How the results depend on the processing

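The members' counts of calls in whole cultures, both directions together, stayed within 1.5 times their reported value under every alternative run, while the 4 called higher from Day 7 to Day 10 became 2 without Day 10 replicate B or Day 7 replicate B. Of single member values, 339 in whole cultures and 560 within classes kept direction and call, while 8 and 27 lost it, 6 and 7 gained it and 7 and 5 changed sign. Values near 0 changed sign without a call: Dkk2 from Day 2 to Day 7 without Day 7 replicate A (0.027, range over libraries left out -0.26 to 0.027), Dkk1 from Day 7 to Day 10 without Day 10 replicate B (-0.29, range -0.29 to 0.41), and Frzb from Day 7 to Day 10 with all barcodes (0.00065), the floor of 3000 UMIs (0.0084), no TMM factors (0.012), without Day 10 replicate B (0.076) or without Day 7 replicate A (0.062), with a range of -0.090 to 0.076. Within chondrocyte-like cells from Day 7 to Day 10, Sfrp2 did so without Day 10 replicate A (0.064, range -0.40 to 0.064) and Sost without Day 7 replicate B (-0.42) or Day 10 replicate B (-3.91, range -3.91 to 1.28), and in myocyte-like cells Dkk2 did so with no filter on low counts (-0.063) or without Day 7 replicate B (-1.26, range -1.26 to 1.75). The myocyte-like count of 5 members called ranged from 2 to 5 when a library was left out. At the lower cluster resolution the cluster highest for a member kept its identity in 12 of 22 pairs of member and day, against 16 at the higher resolution and 16 without integration. Without TMM factors, genes called from Day 2 to Day 10 divided into 5474 higher and 9347 lower, in place of 7414 and 7256. With the replicate letter as a block, 13135, 9607 and 14524 genes were called in place of 13342, 9913 and 14670. Under it Dkk2 (whole cultures) and Dkk1 (chondrocyte-like cells, -0.73) became called from Day 7 to Day 10, Dkk3 (contractile mesenchyme-like cells, -0.19) was lost, and no other member call changed. With n = 2 libraries per day, small changes of Sost, Sfrp4 and Dkk2 are at the limit of what these data resolve.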
